A study of Mus musculus with 3 samples.

Results

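The cells described here are Pax1-positive cells of somitic character in mouse embryos, sorted as descendants of Mesp1-expressing mesoderm. A cell was taken when it held at least 1 UMI (a counted RNA molecule) of Pax1 and at least 1 of Meox1 and Meox2 together, fewer than 3 of Epcam, and fewer than 50 UMIs per 10000 of the heart muscle genes Myl7, Tnnt2, Ttn and Myl4. Of 14777 cells, 938 met this rule. Pax1 was seen in 1108 cells, 945 of which also held Meox1 or Meox2; the Epcam limit removed 4 of these and the heart limit 3. The cells were thus selected on measured counts of Pax1, Meox1, Meox2, Epcam and the heart genes, and the levels of these genes are given as description only. At the limits of the rule, 246 cells had a single Pax1 UMI and 67 a single UMI of Meox1 and Meox2, 3 had 2 of Epcam, and the highest heart gene level kept was 48.7 UMIs per 10000 against 66.4 in the lowest cell left out.

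The embryos carried Mesp1-Cre and the Ai9 red fluorescent reporter on a C57BL/6 background, with 1 floxed Wls allele (fl/+, called control here) or with both alleles floxed (fl/fl, called mutant). The controls thus also carry Cre, the reporter and a floxed allele. Mesp1-Cre is active in early mesoderm, and only reporter-positive cells were sorted. Embryos were collected at E8.0, E8.5 and E9.5, cells of a sample were tagged with a lipid barcode, and the pools were captured with the 10x Chromium v3 kit and sequenced in 3 runs. The unit of comparison is the barcode sample, of which there were 22; whether a barcode held 1 embryo or several is not stated, so p-values measure the spread between barcodes. At E8.0 there were 3 control and 3 mutant barcodes (all run 1), at E8.5 2 control and 1 mutant barcode (all run 2), and at E9.5 6 and 6 over all 3 runs. A further control barcode of 28 cells labelled E7.5 held none of these cells.

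Somites are blocks of paraxial mesoderm that form in sequence from head to tail. Signals from the notochord and floor plate, Sonic hedgehog and the BMP antagonist Noggin, make the ventral part of each somite leave the epithelium as sclerotome, the source of vertebrae and ribs, while Wnt signals from the neural tube and surface ectoderm favour the dorsal dermomyotome, the source of muscle and dermis. Pax1 and Pax9 are paired-box transcription factors of the sclerotome, Meox1 and Meox2 are homeobox factors of the somite, and Foxd1 is a forkhead factor. Wls is a membrane protein that carries Wnt ligands to the cell surface.

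The 938 cells held 20255577 UMIs, with a median of 20419.5 per cell against 22237 in the 3463 other cells with Meox1 or Meox2 that met the same limits. By stage they numbered 83 at E8.0 (33 control, 50 mutant), 230 at E8.5 (198 and 32) and 625 at E9.5 (503 and 122). Gene tests used the 13 barcodes with at least 10 of these cells: at E8.0 the control Bar26 and the mutants Bar27 and Bar28, at E8.5 the control Bar3 and the mutant Bar1, at E9.5 the controls Bar22 and Bar23 (run 1), Bar4 (run 2) and Bar9 (run 3) and the mutants Bar19, Bar20 and Bar21 (run 1) and Bar10 (run 3). They held 17 to 198 cells and 185808 to 5034890 UMIs each. Of the cells of the whole data set, 46 had a cell barcode sequence that also occurs in another run; 5 of these were Pax1-positive cells. Levels are CPM, the UMIs of a gene per 1000000 UMIs of the summed cells, and E9.5 values are listed in the order of barcodes just given.

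Wls, the targeted gene, was read first as a check of the genotypes. In Pax1-positive cells it stood at 52.4 CPM in the E8.0 control and 4.17 and 0 CPM in the mutants, at 37.1 CPM in the E8.5 control and 0 in the mutant. At E9.5 it was at 34.4, 32.4, 36.2 and 33.8 CPM in the controls and 8.20, 16.4, 26.0 and 10.8 CPM in the mutants. Each mutant was below each control of its stage, and the E9.5 mutants were the ones with the most Wls left. The E9.5 difference in edgeR was -0.94 ± 0.26 (SE, adjusted p = 0.0147) on the log2 scale. It missed the threshold without Bar19 (adjusted p = 0.0820), Bar22 (0.0777) or Bar23 (0.0512) and in DESeq2 (0.0894). In cells with Pax1 of 2 or more it shrank to -0.27 (edgeR, adjusted p = 0.592). Without the deepest 5% of cells it was -1.52 (edgeR, adjusted p = 0.000521). In the other Meox1 or Meox2 cells the E9.5 mutants had 5.91 to 25.5 CPM (5 barcodes, median 10.8) against 39.6 to 42.8 CPM in controls, and in E9.5 mutant blood cells 0 to 3.93 CPM (6 barcodes). Whether reads from outside the deleted part of the gene enter these counts was not tested.

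The cells were compared with the other Meox1 or Meox2 cells of the same 13 barcodes, as a description without a test, since Pax1 divides the groups by rule. Of 6493 genes at 20 CPM or more in either group, 129 were higher in Pax1-positive cells in each of the 13 barcodes and 80 were lower in each. A gene low in one group entered only through the group where it was high, so no count over a gene list is given here. Foxd1 stood at 457 ± 61.2 against 149 ± 34.5 CPM (mean ± SD over 13 barcodes) and was seen in 95.6% of Pax1-positive cells. Pax9 stood at 20.4 ± 7.88 against 6.44 ± 4.12 CPM, Sox9, the factor that drives cartilage genes, at 194 ± 80.2 against 73.2 ± 25.1 CPM, and Foxc2 at 171 ± 85.7 against 69.2 ± 34.8 CPM. Nkx3-2, an early sclerotome homeobox gene, had a UMI in 13 of 938 cells (1.39%). Pax9 had a UMI in 27.6% of cells, against 9.48% of the other Meox cells and 7.99% of blood cells, which should lack it and had a deeper median of 27271 UMIs. With each cell thinned to 5000 UMIs these shares were 8.56%, 2.59% and 1.44%.

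After Pax1 itself, the largest fold belonged to AI646519, a non-coding RNA gene, at 50.7 ± 15.5 against 2.25 ± 2.78 CPM. In GENCODE M21 (GRCm38) it lies on chromosome 2 from 147357454 to 147362793 on the minus strand and Pax1 from 147361925 to 147393295 on the plus strand, so that the annotated genes overlap by 869 bases at their 5′ ends. The strand setting of the counting is not given in the sources used here, and in the overlap reads of the pair cannot be told apart. The RefSeq start windows of both genes (GRCm38.p6, 250 bases before and 50 after the start, the latter in capitals) are shown for this neighbouring pair, of which Pax1 is higher by rule. The windows lie at chr2:147364744-147365043 on the plus strand and chr2:147362744-147363043 on the minus strand. The Pax1 window begins past the upper end of AI646519 in GENCODE (147362793). The overlap of 869 bases thus rests on the GENCODE start of Pax1 and is not between the starts shown.

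Pax1: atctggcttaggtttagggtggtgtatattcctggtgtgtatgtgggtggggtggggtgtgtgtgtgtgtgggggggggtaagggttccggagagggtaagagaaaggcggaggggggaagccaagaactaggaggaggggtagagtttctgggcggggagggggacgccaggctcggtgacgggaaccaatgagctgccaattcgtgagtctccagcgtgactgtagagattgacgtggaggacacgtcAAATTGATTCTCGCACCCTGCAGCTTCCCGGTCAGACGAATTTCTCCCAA

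AI646519: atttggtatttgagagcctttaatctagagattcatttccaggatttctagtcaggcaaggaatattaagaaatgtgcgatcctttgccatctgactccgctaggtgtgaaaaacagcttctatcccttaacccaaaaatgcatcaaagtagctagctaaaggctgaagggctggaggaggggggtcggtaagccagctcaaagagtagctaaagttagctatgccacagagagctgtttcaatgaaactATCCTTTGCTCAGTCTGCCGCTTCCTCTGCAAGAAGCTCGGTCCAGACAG

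Among the next largest folds was Uncx, a homeobox gene of posterior sclerotome (54.8 ± 30.0 against 10.7 ± 6.86 CPM). Nrtn, which encodes the ligand neurturin, stood at 52.8 ± 12.8 against 13.2 ± 3.01 CPM, Islr at 38.3 ± 11.9 against 9.71 ± 3.58 CPM, and the histone deacetylase Hdac9 at 23.2 ± 16.0 against 5.60 ± 2.80 CPM. Aldh1a2, the enzyme that makes retinoic acid in paraxial mesoderm, stood at 358 ± 201 against 102 ± 93.5 CPM. Rspo3, a secreted enhancer of Wnt signalling, stood at 60.6 ± 26.9 against 18.2 ± 12.0 CPM, and the lipid receptor S1pr3 at 56.1 ± 15.2 against 17.4 ± 7.36 CPM.

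Among the genes lower in each barcode were the Iroquois homeobox genes Irx1 (4.35 ± 3.85 against 35.9 ± 8.41 CPM), Irx3 (13.5 ± 10.4 against 76.1 ± 13.9 CPM) and Irx5 (9.06 ± 4.51 against 47.0 ± 9.26 CPM). The transcription factor genes Msx2, Alx1, Tbx1 and Prrx1 were lower as well, Msx2 at 3.65 ± 5.50 against 20.5 ± 8.91 CPM, Alx1 at 7.42 ± 4.86 against 31.9 ± 10.7 CPM, Tbx1 at 12.0 ± 6.88 against 46.0 ± 12.2 CPM and Prrx1 at 41.3 ± 17.5 against 113 ± 36.3 CPM. Kdr, the VEGF receptor of endothelial precursors, stood at 7.47 ± 9.73 against 30.6 ± 22.4 CPM, and Lmo2, a cofactor of blood and endothelium, at 5.82 ± 7.46 against 24.7 ± 11.9 CPM. Hlx stood at 4.61 ± 6.48 against 20.4 ± 17.2 CPM, and the red cell gene Hbb-bt (4.24 ± 5.31 against 24.8 ± 23.3 CPM) was lower too. The Wnt antagonist Sfrp1 stood at 37.3 ± 18.6 against 114 ± 30.2 CPM and the ligand Bmp4 at 9.91 ± 9.26 against 28.6 ± 16.4 CPM.

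**Figure D1:**
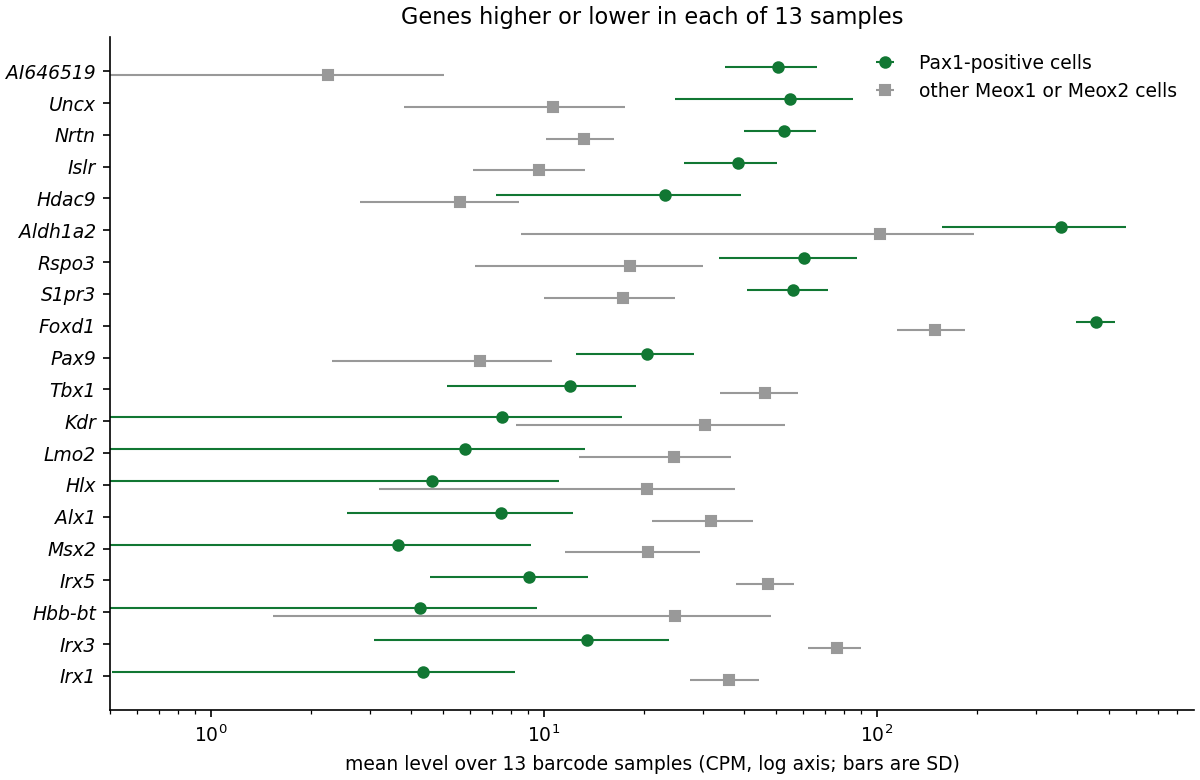
Mean level (CPM, log axis) over 13 barcode samples of genes that were higher (upper 10, without Pax1) or lower (lower 10) in Pax1-positive cells (green circles) than in the other Meox1 or Meox2 cells (grey squares) in each barcode; bars are SD, and a bar that would reach below the left edge is drawn to the edge. Foxd1 stood at 457 against 149 CPM and Irx3 at 13.5 against 76.1 CPM.

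Among themselves the cells separated by Uncx and Tbx18, a T-box factor of anterior sclerotome. Of all 938 cells, 218 had Uncx without Tbx18, 307 Tbx18 without Uncx, 21 both and 392 neither. Tbx18 was seen in 8.79% of cells with Uncx and in 43.9% of cells without it, although cells with Uncx were slightly deeper (median 21439 against 19980 UMIs). The split was of the same kind at each stage, with Tbx18 in 15.8% against 57.8% at E8.0, 7.55% against 48.0% at E8.5 and 8.38% against 40.4% at E9.5. These are shares of cells pooled over barcodes and carry no test. Sox9 and Foxc2 did not divide in this way: Foxc2 was seen in 78.0% of cells with Sox9 and in 67.2% of cells without it.

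**Figure D2:**
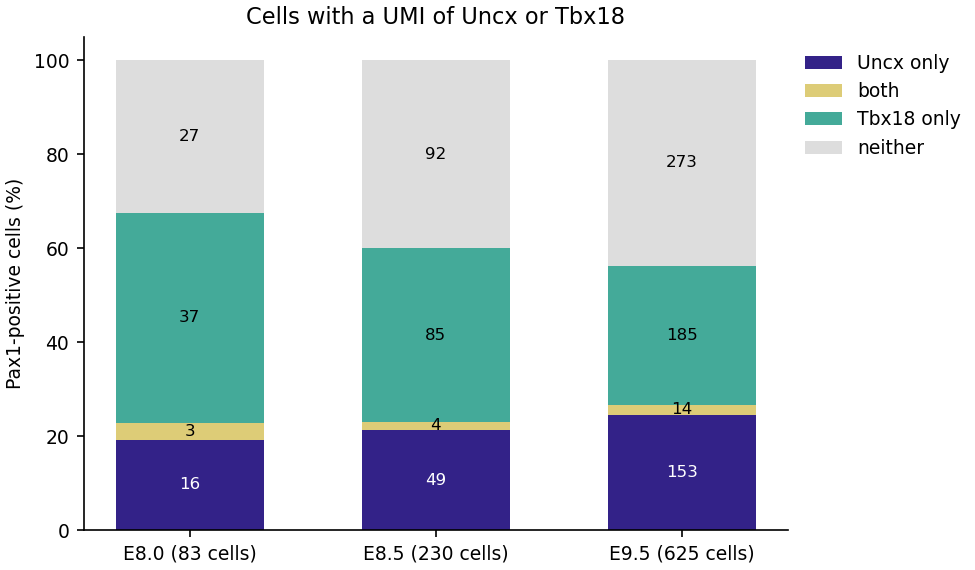
Share (%) of Pax1-positive cells at each stage, pooled over barcodes, with a UMI of Uncx only, of both genes, of Tbx18 only or of neither; the numbers in the bars are cells. Cells with both genes were 3 of 83 at E8.0, 4 of 230 at E8.5 and 14 of 625 at E9.5.

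The cells also ranged in how much Pax1 they held. The median was 4 UMIs and the highest 30; 246 cells had exactly 1, the lowest the rule admits, 109 had 2 and 100 had 3, while the other Meox cells had 0 by definition. Over the 625 cells of E9.5, Sox9 went from 158 CPM in the 160 cells with 1 Pax1 UMI to 254 CPM in the 195 with 2 to 4 and 269 CPM in the 270 with 5 or more, against 88.5 CPM in the 2014 other Meox cells. Foxc2 went from 96.2 to 119 and 139 CPM, and Twist1, a mesenchymal bHLH factor, from 569 to 619.9 and 786 CPM. Pax3, a dermomyotome gene, went the other way, from 50.4 to 20.2 and 10.7 CPM, with 59.8 CPM in the other Meox cells. Pax9 and Tcf15 were ordered upward too, while Foxd1 (351, 501 and 447 CPM), Ptch1 (97.2, 159 and 141 CPM) and Col2a1 (88.8, 119 and 106 CPM) were not ordered. The classes pool barcodes that differ in their share of cells with 1 Pax1 UMI, from 15.9% in the control Bar23 to 52.9% in the mutant Bar10 among those with at least 10 cells. Median depth was 18188.5, 16115 and 22229.5 UMIs in these classes, highest in the class with the most Pax1. The classes were cut on raw Pax1 UMIs, and the part of depth and of barcode in these orders was not tested.

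UMIs of markers of muscle and skin precursors were found in part of the cells. Pax3 was seen in 187 of 938 cells (19.9%; 26.4% of the other Meox cells and 3.43% of blood cells, which should lack it), and Sox9 in 58.3% of those against 87.2% of the cells without Pax3. Myf5, the first myogenic factor of the somite, was seen in 83 cells (8.85%, against 0.326% of blood cells), 56 of which also held Pax3. Cells with these genes were deeper than cells without, with medians of 23280 against 19834 UMIs for Pax3 and 23566 against 20187 for Myf5, and UMIs from free RNA were not removed. At E8.0 all 11 cells with Myf5 held Pax3, at E8.5 18 of 21 and at E9.5 27 of 51. Among cells without Myf5, Pax3 was seen in 45.8% at E8.0, 8.13% at E8.5 and 14.1% at E9.5. Pax3 was thus most frequent at E8.0, which the share pooled over stages does not show.

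The share of Pax1-positive cells among all sorted cells had no clear order by genotype at E8.0. At E8.0 the controls Bar24, Bar26 and Bar29 held 0.545%, 3.75% and 1.41% and the mutants Bar25, Bar27 and Bar28 held 1.53%, 3.42% and 3.57%. The groups overlapped; the mean difference of 0.942 percentage points had p = 0.60 in a two-sided exact permutation test, whose smallest possible p was 0.10. At E8.5 the controls held 5.88% (2 of 34 cells, Bar2) and 7.81% (196 cells, Bar3) and the single mutant 6.57% (32 cells).

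At E9.5 the controls held 10.7% (Bar22), 10.6% (Bar23), 2.96% (Bar4), 3.05% (Bar7) and 7.26% (Bar9), and the mutants 3.82% (Bar19), 4.37% (Bar20), 5.48% (Bar21), 0 of 57 cells (Bar5, which allows up to 5.26%), 1.19% (Bar8) and 6.07% (Bar10). The mutant mean was 3.49% ± 2.41 (SD, n = 6) and the control mean 6.90% ± 3.81 (n = 5, without Bar6, which had 6 cells). The mutant mean was lower in each run, by 6.06 points in run 1, 2.96 in run 2 and 1.52 in run 3, but the groups overlapped and the difference did not pass (p = 0.115, two-sided exact permutation test). With each cell thinned to 5000 UMIs the difference was −2.38 points with p = 0.0238 in the same exact permutation test, the smallest p among the settings tried, and with Pax9 also required it was −0.788 points with p = 0.266 in that exact test. With Pax9 required the shares themselves were smaller, at 0.329% to 3.14% in these controls and 0 to 2.50% in the mutants. Points under the 2 rules are therefore not on the same scale. Among E9.5 barcodes with at least 10 of these cells, a median Pax1-positive cell had 5 or 6 UMIs of Pax1 in 3 of the 4 controls (2 in Bar9). It had 1 to 3 in the 4 mutants, and median depths were 11472 to 22822 UMIs in these controls and 11396 to 18930 UMIs in these mutants. The smaller control Bar7 (5 cells) had a median of 2 Pax1 UMIs.

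Among Meox1 or Meox2 cells alone, the E9.5 share was 27.5%, 27.4%, 13.1%, 25.0% and 33.6% in the controls Bar22, Bar23, Bar4, Bar7 and Bar9. It was 14.9%, 11.7%, 16.8%, 10.0% and 32.7% in the mutants Bar19, Bar20, Bar21, Bar8 and Bar10. In run 1 each of the 3 mutants was below each control; in run 3 1 of the 2 mutants lay between the controls. The mean difference was −8.09 points (17.2% ± 9.05 against 25.3% ± 7.50, SD, n = 5 and 5) with p = 0.167 in a two-sided exact permutation test. With thinning it was −10.7 points (p = 0.0317), with Pax1 of 2 or more −7.67 points (p = 0.0476), and without Bar10 −12.0 points (p = 0.0317, exact permutation tests). With at least 1 UMI of Pax9 also required it was −1.23 points (p = 0.667, same exact test). The shares under that rule were 1.46% to 9.06% in these controls and 0 to 13.5% in these mutants. Over all stages, the mean of the stage differences in the share of all cells was −0.916 points (p = 0.310, exact permutation within stages), −1.14 points with thinning (p = 0.0463) and −1.41 points with Pax1 of 2 or more (p = 0.0498, same exact test), and −0.019 points with Pax9 required (p = 0.981, same exact test).

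**Figure D3:**
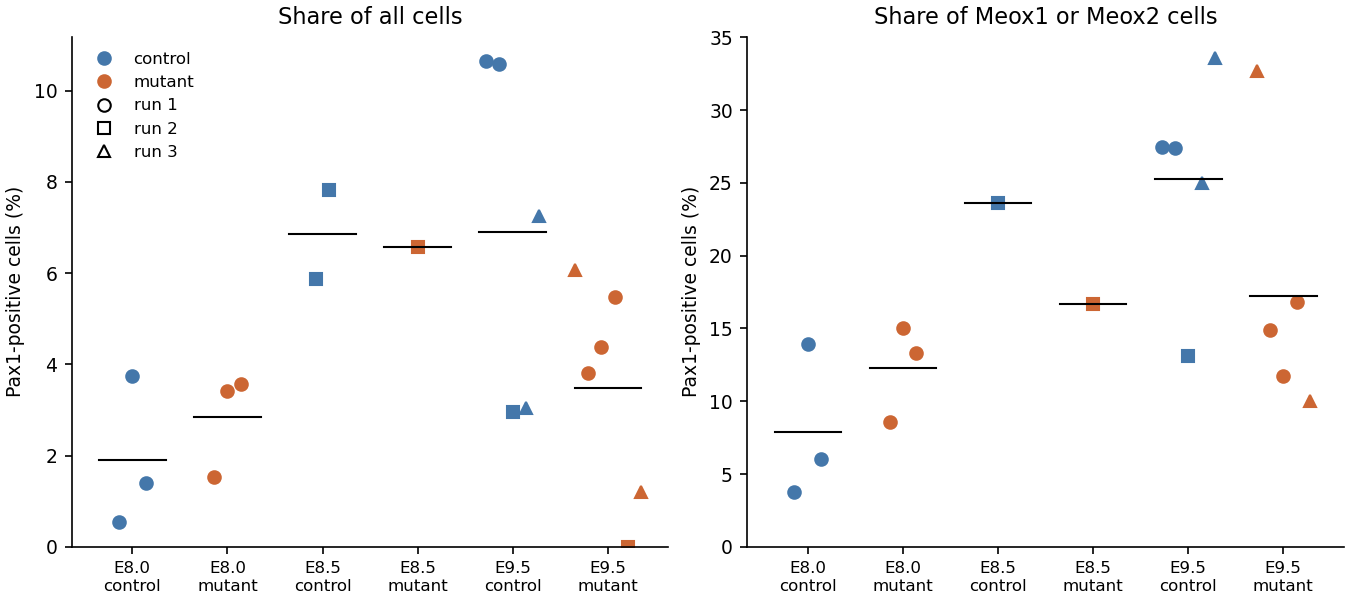
Share (%) of Pax1-positive cells among all cells (left, barcodes with at least 20 cells) and among Meox1 or Meox2 cells (right, barcodes with at least 10 such cells), by stage and genotype; each symbol is a barcode sample, its shape the run, and the line the group mean. At E9.5 the left panel runs from 2.96% to 10.7% in controls and from 0 to 6.07% in mutants.

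Between E8.0 and E9.5 the cells differed in 319 of 7321 genes tested (4.36%; 185 higher, 2.53%, and 134 lower, 1.83%, at E9.5; edgeR, genotype and run in the model, 3 against 8 barcodes). All E8.0 barcodes are in run 1, so the stage difference is taken against the 5 E9.5 barcodes of run 1; Bar4 has no weight in it, and Bar9 and Bar10 enter through the genotype term alone. Of 14 tested sclerotome genes that the rule did not use, 2 were higher and 4 lower, with a median log2 difference of 0.15 against 0.00 over all genes. Nr2f1, a nuclear receptor, stood at 56.4, 85.6 and 66.4 CPM at E8.0 (Bar26, Bar27, Bar28), 246 and 148 CPM at E8.5 (control, mutant), and at E9.5 at 362, 361, 172 and 355 CPM in the controls and 302, 259, 358 and 151 CPM in the mutants. Each E8.0 barcode was below each later one, and the difference was 2.23 ± 0.22 (SE; adjusted p = 7.55e-05). Sox9 stood at 133, 125 and 51.2 CPM at E8.0 (Bar26, Bar27, Bar28), 158 and 146 CPM at E8.5 (control, mutant), and at E9.5 at 225, 255, 92.7 and 223 CPM in the controls and 272, 302, 279 and 258 CPM in the mutants. The E9.5 control Bar4 fell within the E8.0 range and the other E9.5 barcodes lay above it; the difference was 1.38 ± 0.23 (SE; adjusted p = 0.00670). Meox2, which the rule uses in sum with Meox1, was at 32.2 to 47.4 CPM at E8.0 and 86.6 to 153 CPM at E9.5.

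Among the genes lower at E9.5 were Foxc2, Tcf15 and Fbn2. Foxc2 stood at 359, 301 and 245 CPM at E8.0 (Bar26, Bar27, Bar28), 89.2 and 191 CPM at E8.5 (control, mutant), and at E9.5 at 112, 138, 119.8 and 61.4 CPM in the controls and 157, 186, 162 and 108 CPM in the mutants. The 3 E8.0 barcodes were above all E9.5 barcodes, and the difference was -1.02 ± 0.16 (SE; adjusted p = 0.00125). Tcf15, a bHLH factor needed for epithelial somites, stood at 518, 551 and 470.3 CPM at E8.0 (Bar26, Bar27, Bar28), 378 and 659 CPM at E8.5 (control, mutant), and at E9.5 at 272, 342, 552 and 219 CPM in the controls and 246, 249.6, 207 and 145 CPM in the mutants. Only Bar4 among the E9.5 barcodes reached the E8.0 range, and the difference was -0.98 ± 0.11 (SE; adjusted p = 8.49e-06). Fbn2, a microfibril protein, changed by -0.43 ± 0.10 (SE; adjusted p = 0.0168) and was lost without Bar22, Bar26 or Bar27 (adjusted p up to 0.117). Pax1 itself was at 108 to 194 CPM at E8.0 and 144 to 301 CPM at E9.5.

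Matrix genes moved in both directions, 2 of 11 higher and 3 lower, where 4.36% of all genes passed. Col3a1, a fibrillar collagen of mesenchyme, stood at 14.1, 41.7 and 22.8 CPM at E8.0, 278 and 111 CPM at E8.5 and 147 to 405 CPM at E9.5, with no overlap and a difference of 3.29 ± 0.27 (SE; adjusted p = 8.39e-06). Col11a1 rose by 2.03 (adjusted p = 0.00264). Hapln1, a link protein of hyaluronan matrix, stood at 113, 52.2 and 53.1 CPM at E8.0 and 6.30 to 32.2 CPM at E9.5, a difference of -1.94 ± 0.35 (SE; adjusted p = 0.00789). Sox6 (-1.06, adjusted p = 0.0245) and Fn1, fibronectin (-0.54, adjusted p = 0.0252), were lower as well. Each of these 3 lower calls was lost when some single barcode was left out: Hapln1 without Bar26, where it was -0.96 (adjusted p = 0.0516), Sox6 in 4 of 11 fits (up to 0.228) and Fn1 in 5 of 11 (up to 0.134). Col2a1, the main collagen of cartilage, was at 58.8 to 113 CPM at E8.0 and 50.8 to 117 CPM at E9.5.

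Of 8 Hox genes tested, which mark position along the body axis, 4 rose and none fell, where 2.53% of all genes rose, with a median log2 difference of 1.44. Hoxb4 stood at 10.1, 6.26 and 15.2 CPM at E8.0 (Bar26, Bar27, Bar28), 45.1 and 66.6 CPM at E8.5 (control, mutant), and at E9.5 at 62.7, 49.9, 33.9 and 44.9 CPM in the controls and 88.5, 71.0, 123 and 48.4 CPM in the mutants, a difference of 2.93 ± 0.32 (SE; adjusted p = 5.76e-06). Hoxd4 (2.44, adjusted p = 2.3e-05) and Hoxb5 (2.37, adjusted p = 0.0104) rose too, but Hoxb5 was lost without Bar27 (adjusted p = 0.0550). Hoxa5 had no UMI in the 3 E8.0 barcodes tested and 22.6 ± 4.68 CPM (SD, n = 8) at E9.5. Over all 33 E8.0 control cells, which include 2 UMIs in the smaller barcode Bar29, it stood at 2.38 CPM, against 17.8 CPM in the E9.5 control cells. The list median was the same with Hoxa5 at the 3 UMIs that a count of 0 allows in the barcodes tested. In single cells, Hoxb4 was seen in 24.2% of control cells at E8.0 and 40.8% at E9.5.

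Among the largest differences of stage were Zic1, a zinc-finger factor of neural tube and dorsal somite (3.96 ± 0.63 SE, adjusted p = 0.00323), and Dnm3os, a microRNA host gene (4.30), both higher at E9.5. Both were low at E8.0, at 4.03, 6.26 and 0 CPM for Zic1 and 2.01, 2.09 and 3.79 CPM for Dnm3os. Parm1, Sema3d, a secreted guidance cue, and Bhlhe40 were called higher too, but each had 1 or 2 UMIs in the 3 E8.0 barcodes, so no fold is given. Parm1 was at 6.78 to 57.4 CPM and Sema3d at 4.52 to 23.5 CPM at E9.5, while Bhlhe40 was at 0 to 1.58 CPM in the E9.5 controls and 13.6 to 51.0 CPM in the E9.5 mutants. Espn had no UMI in the 3 E8.0 barcodes tested (1 UMI in Bar29) and 16.0 ± 14.3 CPM (SD, n = 8) at E9.5. Zic1 was lost without Bar26 (adjusted p = 0.0505), Dnm3os in 3 of 11 fits with a barcode left out (up to 0.0822) and Bhlhe40 in 2 of 8 (up to 0.157). Lower were Aplnr, the apelin receptor of early mesoderm (-3.72 ± 0.57 SE, adjusted p = 0.00200), Phlda2 (-3.65), Pitx1 (-3.52), Plppr1 (-3.34), the ligand Pdgfa (-1.87), AA465934 (-1.84), the lipid carrier Apoe (-1.84), Ppp1r1a (-1.78) and Sall1 (-1.71). Of these, Plppr1, AA465934 and Apoe kept their call in each fit with a barcode left out. Phlda2 was lost in 8 of 10 such fits (adjusted p up to 0.151), Pitx1 in 3 of 10 (up to 0.341), Pdgfa in 3 of 11 (up to 0.132), Ppp1r1a and Sall1 in 2 of 11 each, and Aplnr without Bar26, where it was -1.97 (adjusted p = 0.0502). Phlda2 stood at 8.06 CPM in the E8.0 control and 543 and 561 CPM in the E8.0 mutants, and Pitx1 at 0 and 27.1 and 75.9 CPM, so that both were high at E8.0 in the mutants alone. Of the Wnt antagonists Sfrp2 was higher (1.05) and Sfrp1 lower (-0.97), and of 9 Wnt targets Nkd1 was higher (0.90), where 2.53% of all genes were higher. Ebf1 (1.79) was higher and Plk1 (-0.64) lower. None of these 5 calls held in each fit with a barcode left out: Nkd1 was lost in 7 of 11 (adjusted p up to 0.243), Sfrp2, Sfrp1 and Ebf1 in 3 each (up to 0.186, 0.0963 and 0.132) and Plk1 without Bar28 (0.0746). Nkd1 and Sfrp2 were also lost in DESeq2 (adjusted p = 0.107 and 0.0818). Pax9, Uncx, Foxd1, Gli1, Axin2, Wls, Col2a1, Myf5 and Pax3 did not pass (adjusted p from 0.186 to 0.904), nor did Tbx18 (-0.84, adjusted p = 0.0854), Ptch1 (-0.87, 0.162) and Lef1 (-0.75, 0.0854).

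Mutants were 2 of the 3 E8.0 barcodes, and stage and genotype were assumed to add. In controls alone, with barcodes of at least 5 cells (2 at E8.0 and 5 at E9.5, an alternative chosen after the data were seen), 255 of 6915 genes passed, 93 of them among the 319. Run was in this model and both E8.0 controls are in run 1, so the stage difference rests on Bar22 and Bar23 against Bar26 and Bar29 (8 cells). The E9.5 controls Bar4, Bar7 and Bar9 of the other runs have no weight in it. Of the 46 genes named as called, 20 also passed in controls, among them Nr2f1 (2.59), Foxc2 (-1.44), Col3a1 (4.82) and Hapln1 (-2.61). The other 26 missed the threshold there or were too low to be tested. Sox9 (1.44, adjusted p = 0.431), Tcf15 (-0.95, 0.122), Hoxb4 (1.33, 0.239) and Hoxd4 (1.00, 0.126) kept their direction and missed the threshold. Ptch1, the hedgehog receptor (-1.51, adjusted p = 9.61e-09), Pax3 (-1.57, 0.00384), Lef1 (-1.14, 0.0145), Uncx (1.31, 0.0270) and Col2a1 (0.68, 0.0424) passed there and not in the joint model. Of 17 low-oxygen genes, 10 were higher at E9.5 in the joint model, where 2.53% of all genes were higher. Those of them tested in controls alone mostly missed the threshold, in a fit where 105 of 6915 genes were higher. Slc2a1 was -0.30 there (adjusted p = 0.510), Bnip3 0.24 (0.882) and Pdk1 0.24 (0.815). Ldha passed (0.65), and Ndufa4l2, Ddit4 and Ndrg1 were too low to be tested. In the joint model Ldha and Ndufa4l2 of these 10 kept their call in each fit with a barcode left out, and the other 8 were lost without Bar28. The joint count fell to 148 without Bar27 and 161 without Bar28 and rose to 559 without Bar26.

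**Figure D4:**
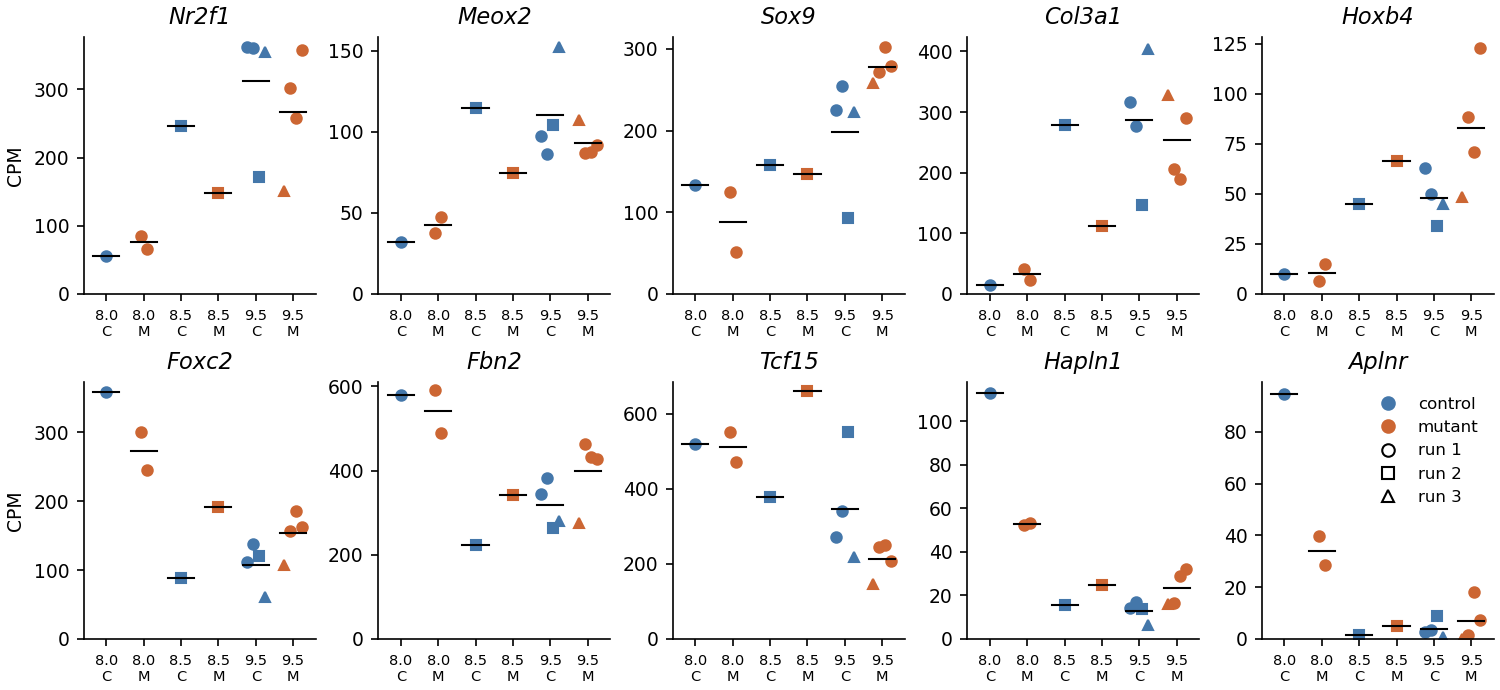
Level (CPM, each axis from 0) of 10 genes in Pax1-positive cells by stage and genotype (C control, M mutant); each symbol is a barcode sample with at least 10 cells, its shape the run, and the line the group mean. Nr2f1 ran from 56.4 to 85.6 CPM at E8.0 and from 151 to 362 CPM at E9.5, above each E8.0 barcode.

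At E9.5, 1596 of 7488 genes tested (21.3%) differed between mutant and control Pax1-positive cells, 821 higher (11.0%) and 775 lower (10.3%) in mutants (edgeR with run in the model, 4 against 4 barcodes). Bar4 is alone in run 2 and so has no weight in this difference. Genes known to respond to low oxygen were mostly higher: of 16 listed genes tested, 15 were higher, none lower and 1 did not pass, with a median log2 difference of 2.59 against 0.02 over all genes. These genes are known targets of the hypoxia-inducible factors and serve glucose uptake, glycolysis, control of mitochondria and vessel growth. The list was drawn up with earlier results of these data known and is no independent evidence of its direction.

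Ndufa4l2, a mitochondrial protein that limits respiration, stood at 5.66, 3.58, 2.26 and 3.94 CPM in the controls and 107, 140.3, 139 and 118 CPM in the mutants. There was no overlap, and the difference was 4.81 ± 0.21 (SE; adjusted p = 7.82e-12). Ddit4, an inhibitor of mTOR signalling, stood at 19.9, 14.1, 2.26 and 14.2 CPM in the controls and 290.2, 311, 188 and 274 CPM in the mutants. The groups were again apart, by 3.99 ± 0.21 (SE; adjusted p = 3.18e-07). Slc2a1, the glucose transporter GLUT1, stood at 67.2, 66.3, 67.8 and 59.0 CPM in the controls and 226, 288, 289 and 285 CPM in the mutants, with a difference of 2.08 ± 0.11 (SE; adjusted p = 2.44e-10) and no overlap. Bnip3, a factor of mitochondrial turnover, stood at 25.6, 14.3, 11.3 and 15.0 CPM in the controls and 103, 126, 136 and 145 CPM in the mutants, with a difference of 2.72 ± 0.20 (SE; adjusted p = 9.49e-08). Vegfa, the growth factor of vessels, stood at 19.9, 16.7, 15.8 and 24.4 CPM in the controls and 73.8, 69.2, 58.2 and 53.8 CPM in the mutants, also with no overlap and a difference of 1.79 ± 0.19 (SE; adjusted p = 1.39e-06). Pdk1 (2.19), Hk2 (1.51), Pgk1 (1.30), Ldha (0.76), Pfkp (3.09) and Slc2a3 (2.47), which act in glucose use, and Ndrg1 (3.32), Ier3 (3.28), Stc2 (2.91) and Ankrd37 (2.71) made up the 15. These kept their call when any single barcode was left out, in each such fit that tested them.

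In the single E8.5 mutant these genes were also above the control, given without a test. Ndufa4l2 stood at 102 CPM there and 3.18 CPM in the control Bar3, Ddit4 at 103 and 8.14 CPM, and Bnip3 at 88.2 and 15.1 CPM. At E8.0 the distance was small: Ndufa4l2 stood at 4.03 CPM in the control and 6.26 and 3.79 CPM in the mutants, and Slc2a1 at 74.5 and 109 and 114 CPM. The summed level of the 20 listed genes was 2194 CPM in the E8.0 control and 3044 and 3177 CPM in the mutants, 3380 and 6177 CPM at E8.5, and 2820 to 4343 CPM in controls against 6548 to 7696 CPM in mutants at E9.5.

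Hypoxia-inducible factors bind DNA at a short core, of which the form ACGTG was searched here. Other forms of the core were not searched, so the capitals below need not mark every core. Of the 15 genes, 12 had RefSeq start windows (GRCm38.p6, 300 bases); Ndufa4l2, Ndrg1 and Slc2a3 were not matched. ACGTG or its reverse complement CACGT was found in 9 of the 12 (75.0%), against 5886 of 27025 genes with a window (21.8%). The genes were listed as targets of these factors, so nothing is read from the higher share. A match is only a match of letters, and binding was not measured. The windows of Ddit4 (chr10:59951721-59952020, minus strand) and Bnip3 (chr7:138909457-138909756, minus strand) are shown as members that moved together, with each match in capitals; in Bnip3 both orientations overlap in 1 run of letters.

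Ddit4: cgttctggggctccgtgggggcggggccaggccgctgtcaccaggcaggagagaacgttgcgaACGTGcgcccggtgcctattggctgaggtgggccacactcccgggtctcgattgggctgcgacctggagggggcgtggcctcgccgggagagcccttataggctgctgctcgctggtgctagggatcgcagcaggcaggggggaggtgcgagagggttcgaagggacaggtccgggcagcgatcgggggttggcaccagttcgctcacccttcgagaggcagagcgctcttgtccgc

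Bnip3: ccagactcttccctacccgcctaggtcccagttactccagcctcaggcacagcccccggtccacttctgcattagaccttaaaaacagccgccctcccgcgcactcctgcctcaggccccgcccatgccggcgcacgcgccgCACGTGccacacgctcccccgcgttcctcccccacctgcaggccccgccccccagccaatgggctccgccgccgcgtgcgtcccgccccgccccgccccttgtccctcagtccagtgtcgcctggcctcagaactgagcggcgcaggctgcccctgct

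**Figure D5:**
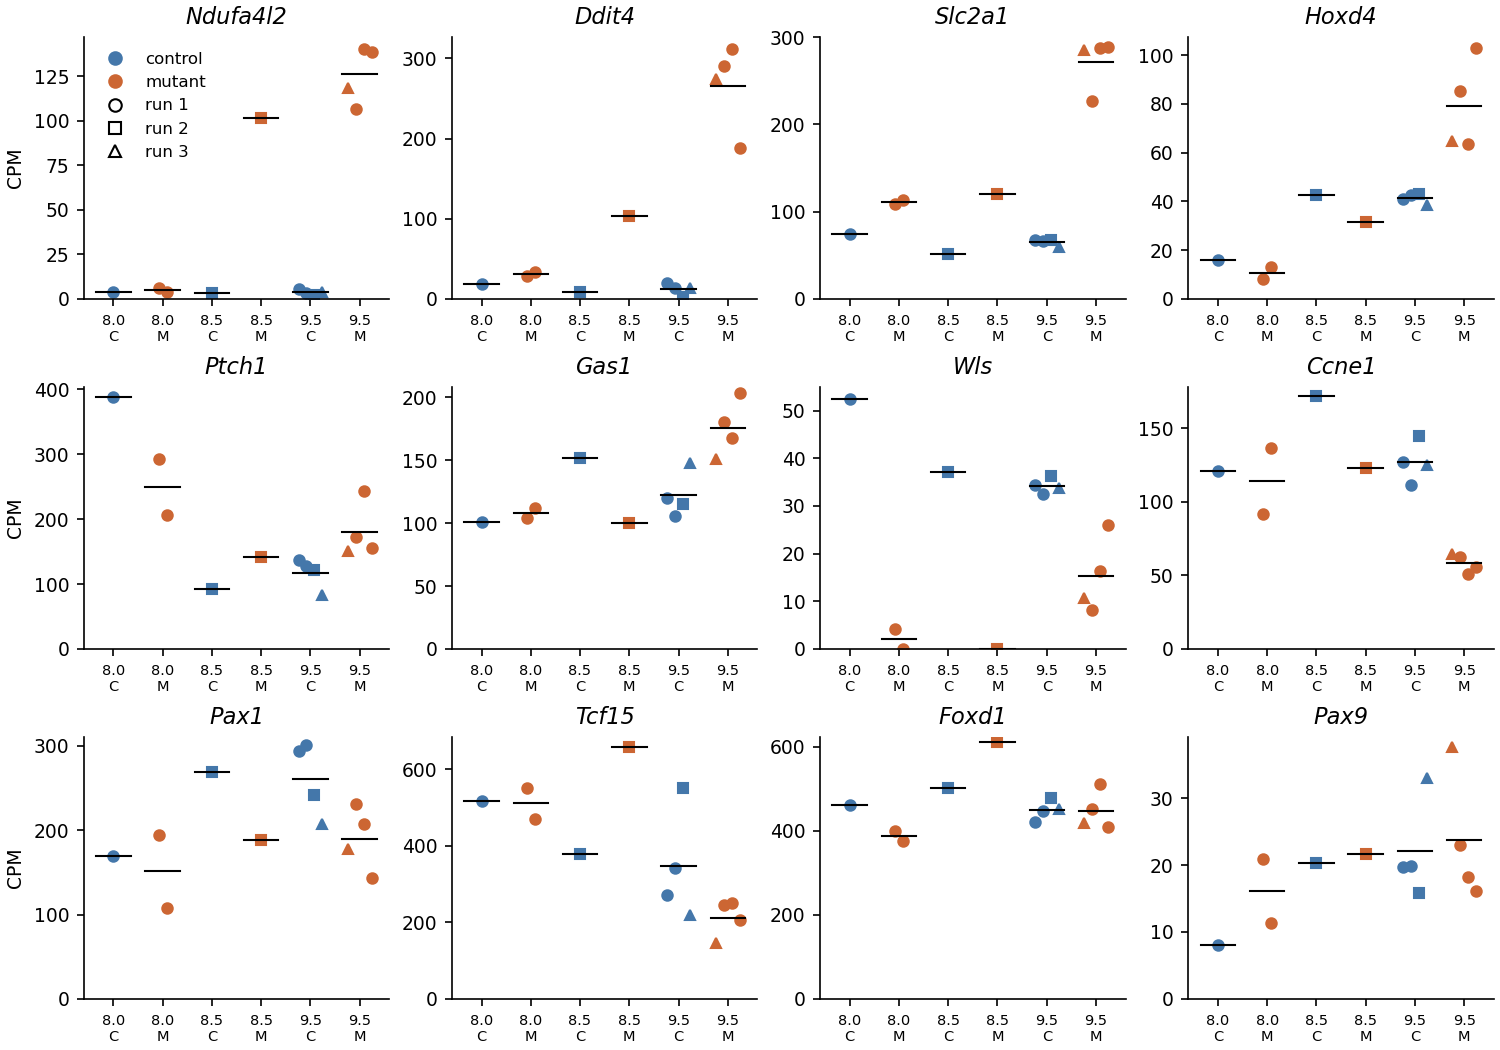
Level (CPM, each axis from 0) of 12 genes in Pax1-positive cells by stage (8.0, 8.5, 9.5) and genotype (C control, M mutant); each symbol is a barcode sample with at least 10 cells, its shape the run, and the line the group mean. Ndufa4l2 lay between 107 and 140.3 CPM in the E9.5 mutants and at 5.66 CPM or less in the E9.5 controls, while Foxd1 and Pax9 overlapped between genotypes.

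Sclerotome genes showed smaller differences at E9.5. Of 14 tested genes that the rule did not use, 3 were higher, 2 lower and 9 did not pass, where 11.0% of all genes were higher and 10.3% lower, with a median log2 difference of 0.06 against 0.02 over all genes. Foxd1 stood at 422, 446, 479 and 451 CPM in the controls and 453, 512, 409 and 419.8 CPM in the mutants, with overlap and a difference of 0.06 ± 0.09 (SE; adjusted p = 0.678). Pax9 stood at 19.7, 19.8, 15.8 and 33.1 CPM in the controls and 23.0, 18.2, 16.1 and 37.7 CPM in the mutants and overlapped likewise (0.00 ± 0.24 SE, adjusted p = 1.00). Pax1, used by the rule, stood at 294, 301, 242 and 207 CPM in the controls and 231, 208, 144 and 178 CPM in the mutants. Only the control Bar9 reached the mutant range.

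Sox9 stood at 225, 255, 92.7 and 223 CPM in the controls and 272, 302, 279 and 258 CPM in the mutants; each mutant was above each control, and the difference was 0.27 ± 0.09 (SE; adjusted p = 0.0359). Foxc2 stood at 112, 138, 119.8 and 61.4 CPM in the controls and 157, 186, 162 and 108 CPM in the mutants, with an overlap and a difference of 0.49 ± 0.12 (SE; adjusted p = 0.00636). Uncx stood at 53.2, 57.0, 43.0 and 22.8 CPM in the controls and 98.4, 115, 54.5 and 32.3 CPM in the mutants, also overlapping, with a difference of 0.66 ± 0.19 (SE; adjusted p = 0.0219). Tcf15 was lower (-0.40 ± 0.11 SE, adjusted p = 0.0107), at 272, 342, 552 and 219 CPM in the controls and 246, 249.6, 207 and 145 CPM in the mutants, and so was Mfap2, a microfibril protein (-0.47 ± 0.12 SE, adjusted p = 0.00976). None of these 5 calls held in each fit with a barcode left out: the highest adjusted p was 0.338 for Sox9, 0.115 for Foxc2, 0.138 for Uncx and 0.0541 for Mfap2 without Bar22, and 0.179 for Tcf15 without Bar23. Sox9 was lost also without Bar10 (0.0517), Bar20 (0.105) or Bar23 (0.101), Tcf15 without Bar21 (0.0738), and Uncx without Bar9 (0.0538), Bar10 (0.0591), Bar19 (0.106), Bar20 (0.125) or Bar23 (0.0947). Tbx18 did not pass (0.36, adjusted p = 0.283).

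The hedgehog list, the pathway that induces sclerotome, had 4 of 9 tested genes higher in mutants and none lower, where 11.0% of all genes were higher, with a median log2 difference of 0.28. Ptch1, the receptor and a target of the pathway, stood at 137, 127, 122 and 82.7 CPM in the controls and 172, 244, 155 and 151 CPM in the mutants. Each mutant was above each control, by 0.58 ± 0.13 (SE; adjusted p = 0.00468). The co-receptors Gas1, Cdon and Boc rose too. Gas1 stood at 119.7, 106, 115 and 148 CPM in the controls and 180.4, 168, 203 and 151 CPM in the mutants, with no overlap and a difference of 0.64 ± 0.12 (SE; adjusted p = 0.000855). Boc differed by 0.99 ± 0.26 (SE; adjusted p = 0.00991) and Cdon by 0.88 ± 0.28 (SE; adjusted p = 0.0309), and Cdon was lost without Bar20 (adjusted p = 0.0955), in DESeq2 (0.172) and with no filter on low counts (0.136). In cells with 2 or more Pax1 UMIs 1 gene of the list was higher, in a fit where 615 of 6802 genes were higher. Ptch1 was at adjusted p = 0.0509 and Boc at 0.0975 in that edgeR fit. Ptch1 also missed the threshold without the deepest 5% of cells (edgeR, adjusted p = 0.136). Gli1, another target, stood at 21.7, 19.8, 36.2 and 15.0 CPM in the controls and 18.0, 31.0, 27.3 and 10.8 CPM in the mutants and overlapped (0.27 ± 0.24 SE, adjusted p = 0.454).

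Of 11 matrix genes tested, 3 were higher and 2 lower, where 21.3% of all genes passed in either direction. Fn1, fibronectin, stood at 122, 106, 67.8 and 98.4 CPM in the controls and 179, 222, 157 and 226 CPM in the mutants, with no overlap and a difference of 0.80 ± 0.13 (SE; adjusted p = 0.000172). Col11a1 (0.74 ± 0.22 SE, adjusted p = 0.0219) and Hapln1 (0.82 ± 0.27 SE, adjusted p = 0.0351) were higher. Col2a1 stood at 111, 114, 63.3 and 117 CPM in the controls and 50.8, 80.2, 94.2 and 80.7 CPM in the mutants, with an overlap and a difference of -0.53 ± 0.15 (SE; adjusted p = 0.0145), and Col9a1 was lower too (-0.54 ± 0.17 SE, adjusted p = 0.0330). Apart from Fn1, these calls were lost when some single barcode was left out, with adjusted p up to 0.190 (Col11a1, without Bar19), 0.230 (Hapln1, without Bar21), 0.101 (Col2a1, without Bar23) and 0.148 (Col9a1, without Bar23).

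Of 8 Hox genes tested at E9.5, 4 were higher in mutants and none lower, where 11.0% of all genes were higher, with a median log2 difference of 0.77. Hoxd4 stood at 41.2, 42.5, 43.0 and 38.6 CPM in the controls and 85.3, 63.8, 103 and 64.6 CPM in the mutants. All mutants were above all controls, by 1.03 ± 0.16 (SE; adjusted p = 0.000127). Hoxb1 (0.90 ± 0.30 SE, adjusted p = 0.0350) and Hoxb4 (0.75 ± 0.18 SE, adjusted p = 0.00564) were higher, and lost their call without some single barcode (adjusted p up to 0.178 without Bar23 and 0.113 without Bar23). Of 6 genes of retinoic acid, a regulator of anterior Hox genes, 3 were higher, against the same 11.0% of all genes: Crabp1, a binding protein (0.98 ± 0.15 SE, adjusted p = 0.00015), Dhrs3, a reductase (1.65 ± 0.39 SE, adjusted p = 0.0143), and Rara, a receptor (0.54 ± 0.19 SE, adjusted p = 0.0436). Dhrs3 was lost without Bar21, Bar22 or Bar23 (adjusted p up to 0.110), and Rara in each of the 8 fits with a barcode left out (up to 0.258). Crabp1 kept its call in those fits and lost it in cells with Pax1 of 2 or more.

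Of 15 cell cycle genes tested, 8 were lower in mutants and 1 higher, where 10.3% of all genes were lower and 11.0% higher, with a median log2 difference of −0.38. Ccne1, the cyclin of entry into DNA synthesis, stood at 127, 111, 145 and 125 CPM in the controls and 62.3, 51.0, 55.7 and 64.6 CPM in the mutants. Each mutant was below each control, with a difference of -1.03 ± 0.14 (SE; adjusted p = 1.98e-05). Plk1, a mitotic kinase (-0.73 ± 0.13 SE, adjusted p = 0.0006), the cyclins Ccnd1 (-0.63 ± 0.15 SE, adjusted p = 0.00502), Ccnd2 (-0.44 ± 0.09 SE, adjusted p = 0.000938) and Ccna2 (-0.33 ± 0.11 SE, adjusted p = 0.0441), and the replication genes Mcm2 (-0.43), Mcm5 (-0.47) and Pcna (-0.38) were lower. Top2a, a topoisomerase, was higher at 538, 559, 531 and 517 CPM in the controls and 817, 709, 706 and 813 CPM in the mutants (0.52 ± 0.08 SE, adjusted p = 0.000161). The number lower went from 3 to 9 over the settings tried, and Ccne1, Plk1, Ccnd2 and Top2a kept their calls with any 1 barcode left out. Ccnd1, Ccna2, Mcm2, Mcm5 and Pcna were each lost in 2 to 5 of the 8 fits (adjusted p up to 0.0775, 0.307, 0.123, 0.0626 and 0.0885).

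Of 8 Wnt targets tested at E9.5, Ccnd1 was lower and the other 7 did not pass, where 10.3% of all genes were lower. Their median log2 difference was 0.09. Axin2, a feedback inhibitor induced by Wnt signalling in many tissues, stood at 26.7, 22.9, 22.6 and 22.0 CPM in the controls and 31.2, 31.0, 14.9 and 26.9 CPM in the mutants, with overlap and a difference of 0.04 ± 0.25 (SE; adjusted p = 0.925). Lef1, a transcription factor of the pathway, stood at 29.9, 34.8, 43.0 and 17.3 CPM in the controls and 37.7, 18.2, 35.9 and 21.5 CPM in the mutants, likewise (0.01 ± 0.22 SE, adjusted p = 0.980). These are levels in the cells themselves; Wnt protein was not measured.

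Genes of other somite compartments were few at test depth. Pax3 was higher within runs (0.88 ± 0.21 SE, adjusted p = 0.00599) and stood at 21.5, 18.8, 52.0 and 8.66 CPM in the controls and 32.8, 43.7, 32.2 and 21.5 CPM in the mutants. Myf5 was also called higher in the fit (2.03 ± 0.51 SE, adjusted p = 0.0163). It stood at 2.49, 7.40, 47.5 and 12.6 CPM in the controls and 34.4, 21.9, 21.1 and 5.38 CPM in the mutants. The Myf5 levels of the run 1 mutants were above those of the run 1 controls, while the mutant Bar10 was below Bar9, the control of its run. In both genes the control Bar4, which has no weight in the fit, was the highest of all 8 barcodes, and the calls were lost without Bar23 for Pax3 (adjusted p = 0.0788) and without Bar20 (0.0557) or Bar21 (0.0543) for Myf5. In cells with 2 or more Pax1 UMIs neither passed (adjusted p = 0.315 for Pax3 and 0.0704 for Myf5); cells with 1 Pax1 UMI were 36.4% to 52.9% of the cells in the tested mutant barcodes and 15.9% to 37.0% in the tested controls. Fgf8, a ligand made in the forming somite region and elsewhere, was at 5.88, 10.5, 27.1 and 20.5 CPM in the controls and 44.3, 43.7, 47.1 and 10.8 CPM in the mutants (2.13 ± 0.39 SE, adjusted p = 0.00295), with an overlap. Smad7, a BMP and TGF-beta feedback inhibitor, was higher by 0.74 ± 0.19 (SE; adjusted p = 0.00754), and lost its call without Bar21, Bar22 or Bar23 (adjusted p up to 0.0860).

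The largest rises outside the lists were Vldlr, a lipoprotein receptor (3.68 ± 0.44 SE, adjusted p = 1.38e-05), Cox4i2, a subunit of cytochrome oxidase known to be induced at low oxygen (3.45 ± 0.25 SE, adjusted p = 1.14e-08), the metallothionein Mt1 (3.09 ± 0.64 SE, adjusted p = 0.0387) and the nuclear receptor Rora (2.74 ± 0.29 SE, adjusted p = 1.22e-06). Mt1 was lost without any of Bar9, Bar10, Bar21, Bar22 and Bar23 (adjusted p up to 0.216). Among the largest falls were Trmt61a, a tRNA methyltransferase (-1.73 ± 0.26 SE, adjusted p = 0.000113), Cdr2 (-1.57), Cox10, needed to assemble cytochrome oxidase (-1.45), Cib1 (-1.40), Coq10b (-1.40), Pinx1 (-1.33), Mns1 (-1.31) and Fbxo9 (-1.30). Trmt61a stood at 32.1, 33.6, 38.4 and 34.6 CPM in the controls and 13.1, 7.29, 9.91 and 5.38 CPM in the mutants, with no overlap. Coq10b was lost without Bar21 (adjusted p = 0.113) or Bar22 (0.0659).

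Some signs of RNA quality and of other cells moved with genotype at E9.5, while others overlapped. The 13 mitochondrial protein genes took 1.83% to 1.86% of UMIs in the run 1 controls against 1.16% to 1.27% in the run 1 mutants, and 1.27% (Bar9) against 0.854% (Bar10) in run 3. The control Bar4 of run 2 was at 1.01% and the smaller control Bar7 of run 3 (5 cells) at 1.06%, both below the run 1 mutants. Malat1, a nuclear RNA, stood at 4397 to 5521 CPM in controls and 7920 to 9248 CPM in mutants (0.89 on the log2 scale, adjusted p = 1.28e-09; named after its value was seen). The summed blood list was at 1239 to 12606 CPM in controls and 1851 to 6055 CPM in mutants; the globins Hbb-bs (-1.70), Hbb-y (-1.03, adjusted p = 0.0478) and Hba-x (-1.25, 0.0487) were lower in mutants, although Hbb-y turned to 0.32 without the deepest 5% of cells. The summed lateral plate and limb list was at 92.3 to 102 CPM in controls and 113 to 172 CPM in mutants; of its 2 tested genes Gata6 was higher (1.59) and Prrx1 lower (-0.82). The endoderm and epithelium list was at 18.9 to 70.1 and 59.5 to 248 CPM, with Krt18 higher (1.72), and the neural crest list at 69.3 to 92.3 and 85.6 to 135 CPM, with Ets1 higher (0.42). Gata6, Krt18 and Hbb-bs kept their call with any 1 barcode left out, while Hba-x was lost in each of the 8 fits and Hbb-y, Prrx1 and Ets1 in 6 of 8 (adjusted p up to 0.130, 0.182, 0.0731 and 0.202). Hbb-bs lost its call without the deepest 5% of cells and in cells with Pax1 of 2 or more. The neural list went the other way, at 94.0 to 242 CPM in controls and 65.6 to 126 CPM in mutants, with overlap. The summed cardiac muscle, endothelium, intermediate mesoderm, and cranial and pharyngeal mesoderm lists overlapped between genotypes as well. The notochord list was at 0 to 3.64 CPM at E9.5. Xist, expressed from the inactive X chromosome of females, stood at 85.9 to 160.2 CPM in the controls and 215 and 231 CPM in the mutants Bar20 and Bar10, but at 18.0 and 8.67 CPM in the mutants Bar19 and Bar21, where the Y-linked Ddx3y stood at 41.0 and 33.4 CPM against 0 to 5.38 CPM in the other 6 tested E9.5 barcodes. At E8.0 Xist was at 161 CPM in the control Bar26 and 14.6 and 3.79 CPM in the mutants Bar27 and Bar28. Both genes were thus unequal between the genotypes. The part of all these values in the differences above was not tested.

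With all stages in 1 model, blocked by stage and run (7 mutant and 6 control barcodes), 1026 of 6880 genes (14.9%) passed, 601 higher (8.74%) and 425 lower (6.18%) in mutants. The control Bar4 is alone in its block and so has no weight in this difference. All 12 tested low-oxygen genes were higher, with a median log2 difference of 1.92. Ddit4 (3.83), Ndrg1 (3.24), Bnip3 (2.60), Ankrd37 (2.38), Slc2a3 (2.25), Pdk1 (2.09), Slc2a1 (1.75), Vegfa (1.44), Hk2 (1.21), Pgk1 (1.05), Ldha (0.71) and Ak4 (0.70) were these genes. Mgarp (2.65), Pgm1 (2.21), Ero1l (1.97) and Mt1 (2.91) were among the largest rises. Trmt61a (-1.22), Nkd2, a Wnt feedback gene (-1.11), Pcp4 (-1.09), Snhg3 (-1.08), Pinx1 (-1.04), Cib1 (-1.03), Tbl3 (-0.95), Fbxo9 (-0.90), Hbb-bs (-1.54) and cytochrome c, Cycs (-0.90), were the largest falls. Of all these, Ak4 was lost in 6 of 13 fits with a barcode left out (adjusted p up to 0.116) and Mt1 and Fbxo9 without Bar22 or Bar23 (up to 0.0940 and 0.0538). Hbb-bs was lost without the deepest 5% of cells and Slc2a3 in run 1 alone.

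Of 14 sclerotome genes not used by the rule, Uncx alone passed (0.66 ± 0.21 SE, adjusted p = 0.0489), where 14.9% of all genes passed. Uncx missed the threshold in 10 of 13 fits with a barcode left out (adjusted p up to 0.156, without Bar22). Of 6 Hox genes tested 3 rose and none fell, where 8.74% of all genes rose, among them Hoxb4 (0.69 ± 0.16 SE, adjusted p = 0.00468) and Hoxd4 (0.70). Fn1 (0.70), Gata6 (1.82), Smad7 (0.58), Sfrp1 (0.56), Ets1 (0.44), Dhrs3 (1.53), Top2a (0.42) and Mki67 (0.36) were higher, and Plk1 (-0.60), Ccne1 (-0.68), Ccnd2 (-0.44) and Pcna (-0.30) lower. Fn1, Gata6, Dhrs3, Top2a, Plk1, Ccne1 and Ccnd2 kept their call in each fit with a barcode left out that tested them. Of these, Fn1 was lost with barcodes of at least 5 cells and Top2a in cells with Pax1 of 2 or more. Ets1 was lost in 10 of 13 fits (adjusted p up to 0.175), Sfrp1 and Pcna in 8 (up to 0.258 and 0.103), Hoxd4 in 6 (up to 0.194), Mki67 in 5 (up to 0.0975), Smad7 in 3 (up to 0.170) and Hoxb4 without Bar23 (0.0795). Wls was -1.77 ± 0.55 (SE, adjusted p = 0.0647) and missed the threshold in this model. It passed in some settings, among them DESeq2 (-2.59, adjusted p = 0.0147) and edgeR without the deepest 5% of cells (-2.34, 0.00108). In edgeR it missed in others, among them run 1 alone (-1.46, adjusted p = 0.138) and Pax1 of 2 or more (-1.18, 0.287). Pax9, Sox9, Foxc2, Tbx18, Tcf15, Foxd1, Ptch1, Gli1, Axin2, Lef1, Col2a1 and Pax3 did not pass (adjusted p from 0.118 to 0.975). The count fell to 434 without Bar23, 475 without Bar22 and 672 without Bar21 and rose to 1651 without Bar26; at E9.5 alone it fell to 680 without Bar23 and 701 without Bar22.

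At E8.0 a single control barcode held 10 or more of these cells. The planned test asked for 2 or more barcodes per genotype, so it was not run. With barcodes of at least 5 cells (2 controls, 3 mutants), 6 of 6662 genes passed (0.0901%; 282 at an unadjusted p under 0.05), 1 higher and 5 lower in mutants; among listed genes these were Wls (−4.23, adjusted p = 0.00172) and Egfl7, an endothelial gene (−2.53, adjusted p = 0.00164). Uncx was 1.64 there (adjusted p = 0.398) and Ptch1 −0.57 (adjusted p = 0.563). The difference between the E9.5 and the E8.0 genotype effect passed in 108 of 7936 genes (1.36%) in the same way, 63 with the higher value at E9.5. Ptch1 was among them (1.18 ± 0.22, adjusted p = 0.00292): it stood at 389 and 359.7 CPM in the E8.0 controls (Bar26, Bar29) and 253, 292 and 207 CPM in the mutants (Bar25, Bar27, Bar28), the reverse of the order at E9.5.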

How the data were processed

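Single-cell counts came from droplet libraries of sorted reporter-positive cells. The authors deposited raw UMI counts per gene and cell, and a table that names each cell's barcode sample, per the file headers. The submitters' processing notes name kallisto, bustools 0.46.1, Cell Ranger and GRCm38; their roles, and whether doublets were removed, are not given in the sources used here, and no doublet caller was run. Groups came from the labels. The members and gene lists were chosen with earlier results of these data known.

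Raw counts of the chosen cells were summed per barcode sample with at least 10 of them and tested with edgeR 4.0.16 in R 4.3.3 (TMM scaling, its filter on low counts, robust quasi-likelihood test), with Benjamini-Hochberg adjustment over all genes tested and a threshold of 0.05. "Passed", "rose" and "fell" refer to this threshold, log2 values are mutant minus control or E9.5 minus E8.0, and errors of log2 values are SE. Shares used barcodes with at least 20 cells (10 for shares of Meox cells) and exact permutation tests. Thinning drew 5000 UMIs per cell and left out the 447 cells below that depth (365 control and 82 mutant), 3 of them chosen cells. Folds against the other Meox cells had 1 CPM added to both sides.

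Named genes were up to 10 of the largest changes each way among called genes with a mean of at least 10 CPM in a group (leaving out Xist, Tsix, Y-linked, ribosomal protein and predicted genes, RIKEN clones and pseudogenes), listed genes that passed, and 20 somite, hedgehog and Wnt genes whether they passed or not. Against the other Meox cells they were the 10 largest folds each way, and listed genes. A few genes that these rules name are not reported here. On simulated counts with 200 changed genes, the test recovered 82% of genes changed by 1 log2 unit in the E9.5 comparison, 93% over all stages and 67% between stages. It also called 15, 8 and 11 unchanged genes in these comparisons. Apart from the changes put in, the simulated gene proportions were the same in all barcodes, with no effect of run. Alternatives were DESeq2 1.42.0, other filters and cell limits, stricter rules, run 1 alone and each barcode left out. UMIs from free RNA were not removed.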

Additional observations from a re-analysis of the deposited data

Results flagged for a closer look

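In 4 of the 44 groups of 4 barcodes examined, 1 barcode lay apart from the others; chance flags about 1 in 20. Nkx3-2 stood at 1.43 CPM (6 UMIs) in the E9.5 control Bar23, with 0 or 1 UMI in the other controls. Meox1, a gene of the selection rule, stood at 614.9 CPM in the E9.5 control Bar4, above the others, and Col2a1 at 63.3 CPM in the same barcode, below them. Nog, which encodes the BMP antagonist Noggin, stood at 3.64 CPM in the E9.5 mutant Bar20. This is 2 UMIs, with none in the other mutants, and a difference between them was not detectable at this depth.

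The genotype difference itself differed between E9.5 and E8.0 in 9 of 145 listed genes tested, against 1.36% of all genes (edgeR, barcodes with at least 5 chosen cells, 2 controls and 3 mutants at E8.0). Values are the E9.5 effect minus the E8.0 effect on the log2 scale. The low-oxygen genes Pfkp (4.21), Ddit4 (2.93), Slc2a1 (1.77) and Hk2 (1.17) rose more in mutants at E9.5. Wls differed by 3.39, its loss being smaller at E9.5. Egfl7 (2.57), Hapln1 (1.71), Ptch1 (1.18) and Foxc2 (0.81) also had the higher effect at E9.5.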

How the results depend on the processing

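The share differences kept their direction in each alternative, and those that crossed 0.05 in the exact permutation tests were the thinned shares (all stages −1.14, E9.5 −2.38, Meox cells −10.7 points), Pax1 of 2 or more (all stages −1.41, Meox cells −7.67 points) and leaving out Bar10 (Meox cells −12.0 points). With Pax9 also required they were −0.019 over all stages, −0.788 at E9.5 and −1.23 points among Meox cells (p = 0.981, 0.266 and 0.667, exact permutation tests). The shares themselves are smaller under that rule, so these points are not on the scale of the main rule. With a barcode left out the differences ran from −1.24 to −0.594 over all stages, −4.40 to −2.48 at E9.5 and −12.0 to −6.03 among Meox cells. Counts of genes passing by genotype over all stages were 660 with Pax1 of 2 or more, 567 in run 1 alone and 434 to 1651 with a barcode left out. At E9.5 they were 775 in DESeq2 and 680 to 1626 with a barcode left out. Between stages they were 499 with no filter on low counts, 197 with no run term and 148 to 559 with a barcode left out. Of called named genes, 41 of 71 at E9.5, 31 of 43 over all stages and 19 of 46 between stages kept their call in each fit with a barcode left out that tested them.

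Signs turned at E9.5 mostly in genes near 0. With no filter on low counts Pax9 was −0.15, Lef1 −0.14, Axin2 −0.10 and Foxd1 −0.094. With at least 20 cells Pax9 was −0.053, Lef1 −0.028 and Axin2 −0.0012. With Pax1 of 2 or more Pax9 was −0.13, Axin2 −0.12 and Meox2, a gene of the selection rule, 0.13 (over all stages 0.0468 in run 1 alone). Without the deepest 5% of cells Hbb-y was 0.32 and Lef1 −0.20, and in run 1 alone Pax9 was −0.043 and Lef1 −0.018. With a barcode left out Pax9 ran from −0.10 to 0.13, Lef1 from −0.10 to 0.23, Axin2 from −0.11 to 0.36 and Foxd1 from −0.0069 to 0.12. In controls alone, added after the data were seen, the stage differences of Slc2a1 (−0.30), Gas1 (−0.13), Wls (−0.71) and Foxd1 (−0.13) turned. The cause was not tested. No paired analysis was possible because the labels give no replicate numbers that groups share. The E8.0 genotype test and the stage interaction were not run at 10 cells, since 1 control barcode remained at E8.0 and the plan asked for 2 or more per genotype.

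The 4 E9.5 mutant barcodes tested had 17 to 40 cells each, which limits the precision for genes of low level.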
